A study of Homo sapiens with 2 samples.

Results

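The regions described here are the TARBP2-bound regions on a segment of the short arm of human chromosome 16, chosen as those with a midpoint from 11 to 31 Mb of hg19 on either strand. They numbered 435 of the 23412 regions in the list, and the remaining 542 regions of chromosome 16 served for comparison. The cells were MDA-LM2, a lung-metastatic derivative of a human breast cancer line, transfected transiently with a vector for myc-tagged TARBP2. At 48 hours they were exposed to UV light and taken through HITS-CLIP, which fixes RNA to the protein it touches, pulls the protein down, here by its myc tag, and sequences the RNA. The bound RNA is therefore that of tagged protein made from a vector in 1 cell line. There was 1 group of 2 replicates, and the processed data were 1 list for both, with a score of 1 for each region. No value has a replicate error and no region has a read depth. A control library was not used here, and no test between conditions was possible. Intervals below are 95% intervals for counting error only. Neighbouring regions are not independent of each other, so these intervals are too narrow as a measure of how a new experiment would vary.

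TARBP2 binds double-stranded RNA and works with the nuclease Dicer in making microRNAs. This part of chromosome 16 is built of low-copy repeats, long blocks of nearly the same sequence that lie in several places among single-copy genes. Many blocks carry a gene of the NPIP family (nuclear pore complex interacting protein), which expanded in primates, beside a partial copy of SMG1, the kinase that phosphorylates UPF1 in nonsense-mediated decay. Reads from such blocks can align equally well to several of them.

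The segment's repeats also hold microRNA genes in several copies. In the RefSeq table, on GRCh38.p14, 37 microRNA genes of this arm lie between 11 and 31 Mb of that build. Of their 31 mature names, 12 are listed at more than 1 locus. Loci get the same mature name because their mature letters are the same, so this identity follows from the naming and is no measure of how alike the repeats are. The sequences below, with the seed (bases 2 to 8) in capitals, are shown because a read from one locus could not be told from a read of another.
hsa-miR-3179: aGAAGGGGugaaauuuaaacgu
hsa-miR-3670: aGAGCUCAcagcuguccuucucua
hsa-miR-6511a-5p: cAGGCAGAaguggggcugacagg
hsa-miR-3180-3p: uGGGGCGGagcuuccggaggcc
hsa-miR-3680-3p: uUUUGCAUgacccugggaguagg
hsa-miR-3680-5p: gACUCACUcacaggauugugca
hsa-miR-6862-3p: cCUCACCCagcucucuggcccucu
The first 3 are each listed at 4 loci and the other 4 at 2. Their seeds all differ from each other, and among the 31 names the seed of miR-3180-3p recurs in miR-3180. A locus of miR-3680 lies within SMG1P3, an SMG1 pseudogene, and one of miR-6511a within NPIPA1, both on the gene's own strand. No bound region was assigned to a microRNA or a gene, because the region list is on hg19 and this annotation on GRCh38.

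Likeness over whole transcripts was measured in the gene families. GENCODE 29 (GRCh38) has 12 NPIPB genes, 6 NPIPA genes, 6 SMG1 pseudogenes and SMG1 itself between 11 and 31 Mb. Of all 31-base words in the transcripts of an NPIPB gene, a median of 90.8% (65.6 to 100% over the 12 genes) also occurred in a chromosome 16 gene that does not overlap it. The median was 92.9% for the SMG1 pseudogenes (88.3 to 97.7%) and 95.5% for the NPIPA genes (84.4 to 100%). SMG1, the full-length gene, shared 19.4% of its words. Among the 209 other protein-coding genes between these positions the median was 0.586%, and 15 of them (7.18%) shared at least 50%. These values describe the annotated transcripts and not the bound regions.

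Bound regions were more densely placed on the segment than on the rest of chromosome 16. The segment held 21.8 regions per Mb (exact Poisson interval 19.8 to 23.9), against 7.73 per Mb (7.09 to 8.41) on the rest of the chromosome, measured from its first to its last region. The ratio was 2.81 (exact interval 2.48 to 3.20). Regions covered 1.08% of the segment and 0.262% of the rest. Part of the rest holds no region at all, the longest such stretch being 12.7 Mb (33965760 to 46649576), and without it the ratio was 2.31. Runs of regions on 1 strand with gaps of no more than 10 kb are called domains here, and with each domain counted once the ratio was 1.86. At the lower bound the nearest regions on either side lay at 11041636 to 11041843 and at 10875528 to 10875776, both on the minus strand. At the upper bound they lay at 30973992 to 30974351 on the plus strand and at 31028201 to 31028883 on the minus strand.

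Within the segment the regions lay in a few places. Windows of 1 Mb held between 1 and 64 regions, with a median of 16. The 71 windows of the rest of the chromosome held between 0 and 55, with a median of 4. That median was 5 over the 57 windows outside the longest empty stretch. The 3 densest windows started at 28 Mb (64 regions), 21 Mb (60) and 29 Mb (59), and were also the 3 densest of the whole chromosome. Together they held 183 regions, 42.1% of the segment's. The 3 sparsest started at 13 Mb with 1 region, 27 Mb with 3 and 20 Mb with 4. In the 5 windows from 23 to 28 Mb there were 31 regions, or 6.2 per Mb, and none of these was longer than 1000 nt. The rest of the chromosome held 7.73 per Mb, or 9.43 per Mb without its longest empty stretch. The 10 windows from 11 to 21 Mb held 150 regions, and the 3 from 28 to 31 Mb held 165.

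**Figure D1:**
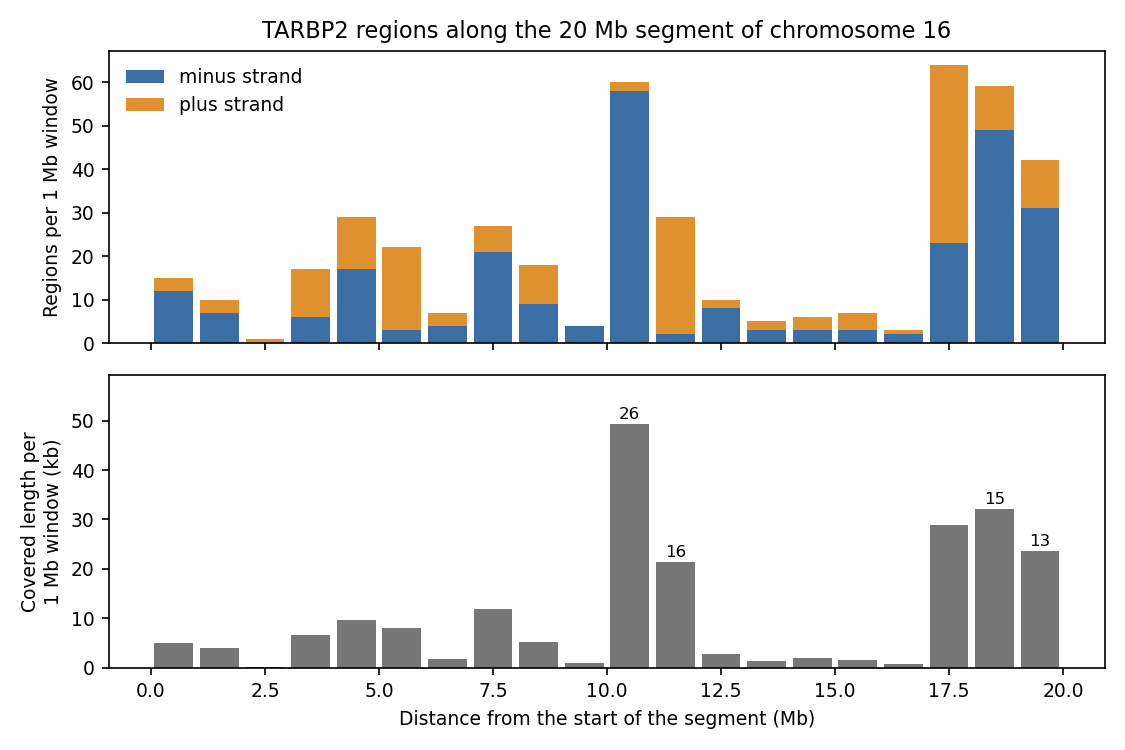
Number of TARBP2 regions per 1 Mb window by strand (top) and length they cover in kb (bottom), against distance in Mb from the start of the segment at 11 Mb. Numbers above bars of the lower panel count the regions that lie in the 5 copies described in the text. The tallest bars hold 60, 64 and 59 regions, and 5 neighbouring windows between them hold 3 to 10 each.

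Strand changed from window to window. The window from 21 Mb held 58 minus-strand and 2 plus-strand regions, whereas the next, from 22 Mb, held 2 minus-strand and 27 plus-strand regions. The window from 16 Mb held 3 minus-strand and 19 plus-strand regions. Over the whole segment, 265 of 435 regions (60.9%, exact binomial interval 56.2 to 65.5%) were on the minus strand, against 373 of 542 (68.8%, 64.7 to 72.7%) on the rest of chromosome 16. On the other chromosomes (1 to 22 and X) the minus share was 60.7% (60.05 to 61.3%). The difference from the rest of chromosome 16 was -7.90 percentage points (-13.9 to -1.89). It shrank to -1.28 points with domains counted once, where 130 of 208 domains (62.5%) on the segment and 250 of 392 (63.8%) on the rest were on the minus strand.

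Regions on the segment were longer. Their median length was 294 nt (order-statistic interval 265 to 321), with an upper quartile of 560 nt, against a median of 250 nt and an upper quartile of 365 nt on the rest of chromosome 16. Regions over 1000 nt numbered 43 (9.89%, 7.25 to 13.1%) on the segment and 12 (2.21%, 1.15 to 3.84%) on the rest. Of those 43, 28 lay in the 5 copies described next and 2 in a related stretch. A single length, just under 250 nt, was the commonest of the list. It was the length of 75 regions (17.2%, 13.8 to 21.1%) on the segment and 129 (23.8%, 20.3 to 27.6%) on the rest. Over the whole list it was the length of 4623 of 23412 regions (19.7%), a share within the segment's interval. On the segment it made up 61 of 265 minus-strand regions (23.02%) and 14 of 170 plus-strand regions (8.24%).

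**Figure D2:**
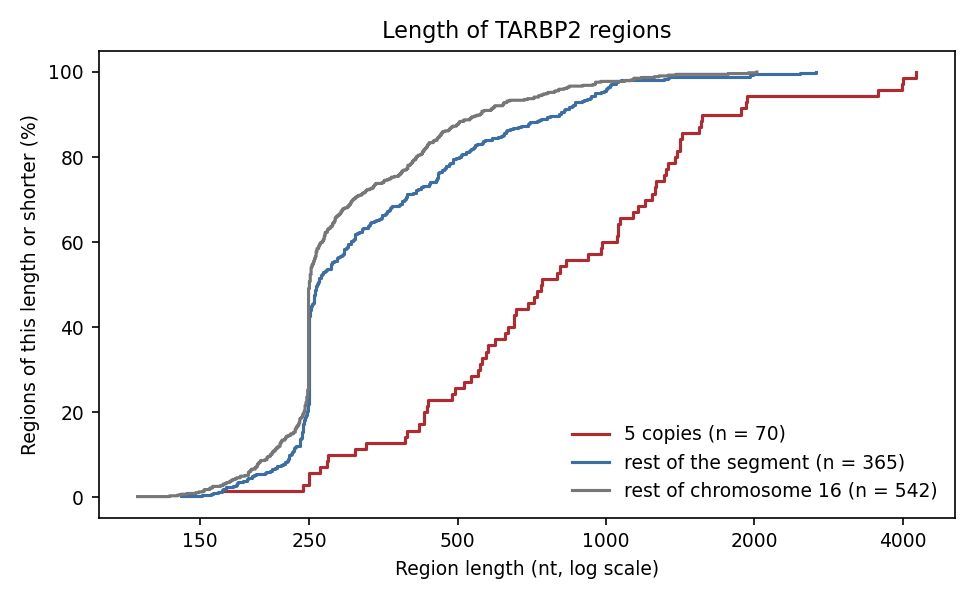
Cumulative share of regions (%) against region length in nt on a log scale, for the 5 copies, the remaining regions of the segment and the rest of chromosome 16. The curve of the copies lies to the right, with a median of 738.5 nt, and the other curves rise steeply just below 250 nt, the commonest length.

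Same-strand regions stood closer together than elsewhere on the chromosome. A higher density by itself raises the share with a near neighbour, and the 2 were not separated here. A same-strand neighbour within 10 kb was present for 295 of 435 regions (67.8%, 63.2 to 72.2%) on the segment and 225 of 542 (41.5%, 37.3 to 45.8%) on the rest, a difference of 26.3 percentage points (20.1 to 32.2). On the segment 171 of 435 regions (39.3%, 34.7 to 44.1%) had a same-strand neighbour within 1 kb, against 89 of 542 (16.4%, 13.4 to 19.8%) on the rest. With the 5 copies left out, the segment's shares were 61.6% within 10 kb and 30.4% within 1 kb. The segment had 208 domains, and 140 of them were a region alone. Its 10 domains of at least 8 regions held 124 regions (28.5%), while the rest of chromosome 16 had 2 such domains with 19 regions (3.51%).

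Those 10 domains fell into 3 kinds. First, 5 of them held 12 to 16 regions each and had covered positions that correlated with each other when laid over one another along the strand. Copies were defined by this layout (r of at least 0.7 in 20 nt bins over at least 20 kb), so the likeness itself is not tested. Over their 10 pairs r was between 0.713 and 0.823, while pairs that included one of the other domains long enough to compare reached at most 0.474. Next, a shorter domain resembled them in part. The remaining 4 were not copies by this rule, and 2 of them, under 10 kb long, were too short to compare. The 21.4 Mb copy (21426639 to 21457102, minus strand) held 12 regions. The 21.9 Mb copy (21856405 to 21889597, minus) held 14, and the 22.5 Mb copy (22504625 to 22534969, plus) held 16. The 29.5 Mb copy (29507136 to 29537577, minus) held 15 and the 30.2 Mb copy (30247089 to 30277684, minus) 13.

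The copies made up a small length of the segment and a large part of its bound sequence. They held 70 regions, 16.1% of the segment's, on 155 kb, 0.775% of its length, and these covered 71.5 kb, 33.0% of all covered sequence of the segment. Regions covered 40.3 to 50.3% of each copy. Since domains of many regions were needed to find copies, their density is a description. Regions of the copies had a median length of 738.5 nt, against 259 nt in the rest of the segment, which also holds the regions that stand alone. Other domains of at least 8 regions on the segment had medians of 349 to 580 nt. The longest region among them was 2667 nt, so long regions were not confined to the copies. In the copies 28 of 70 regions (40.0%, 28.5 to 52.4%) were over 1000 nt, against 15 of 365 (4.11%, 2.32 to 6.69%) in the rest of the segment. Regions at like positions recur from copy to copy, so the 70 are not separate observations. Intervals for the copies, here and below, are therefore too narrow. The commonest length of the list occurred in 2 of 70 (2.86%, 0.348 to 9.94%), both in the 21.9 Mb copy, against 73 of 365 (20%, 16.02 to 24.5%). Without the copies the segment held 18.4 regions per Mb (16.6 to 20.4), 2.38 times the rest of the chromosome with its longest empty stretch counted. Without that stretch the rest held 9.43 per Mb (8.66 to 10.3). With the copies left out, the segment's share over 1000 nt was 1.90 percentage points above the rest in place of 7.67. What remained kept the shorter domain that resembles the copies in part. It was not sorted by repeats, so these values do not describe single-copy sequence alone.

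**Figure D3:**
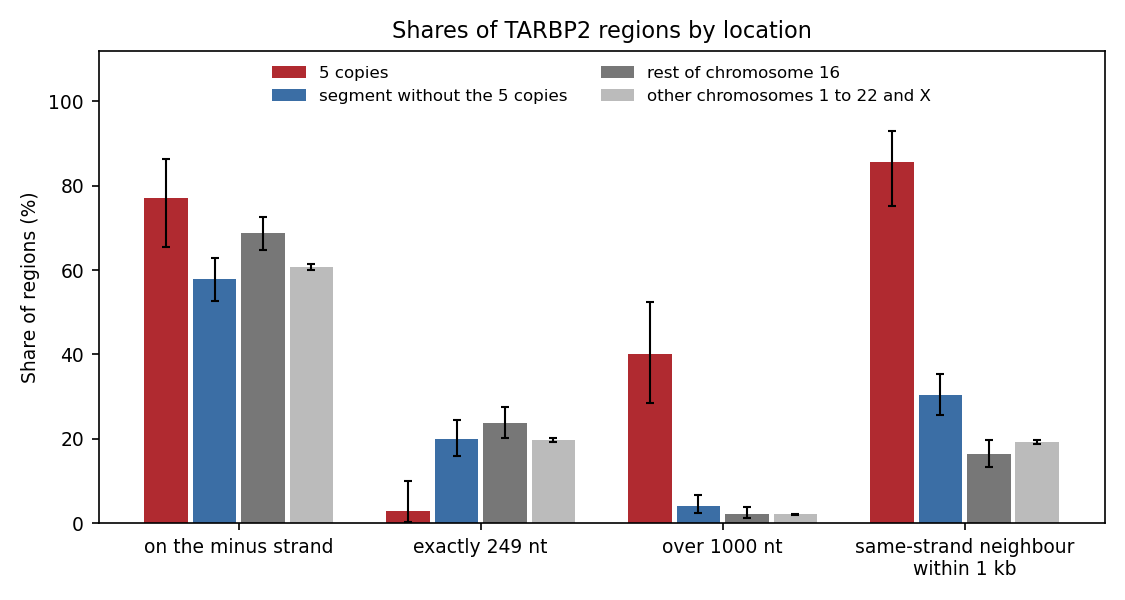
Share of regions (%) on the minus strand, of the commonest length, over 1000 nt and with a same-strand neighbour within 1 kb, for the 5 copies, the rest of the segment, the rest of chromosome 16 and the other chromosomes; bars are shares and lines 95% exact binomial intervals. The copies stand apart in the share over 1000 nt (40.0%) and in the share with a close neighbour (85.7%), which the choice of dense same-strand domains as copies largely sets.

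The 5 copies were shifted onto 1 axis, counted in nt along the strand from the 5′ end of the 21.4 Mb copy. Each shift was the one that best matched the covered positions of that copy. Bound positions then fell in the same places, which the choice of copies and of shifts largely sets. Of the 30464 nt of that copy's span, 10344 (34.0%) were covered in all 5 copies, 12514 (41.1%) in none and the remainder in 1 to 4 copies. Each copy had 66.9 to 84.3% of its covered bases in positions that the 4 others also covered. Bases covered in no other copy were 0% in the 29.5 Mb copy and at most 8.66%, in the 22.5 Mb copy. There a region of 1314 nt began at 8944 nt, whereas the nearest regions of the other copies began between 9307 and 9696 nt. The ends of regions were less alike: 12 of 70 regions had both ends within 20 nt of a region in another copy, and 28 within 50 nt.

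**Figure D4:**
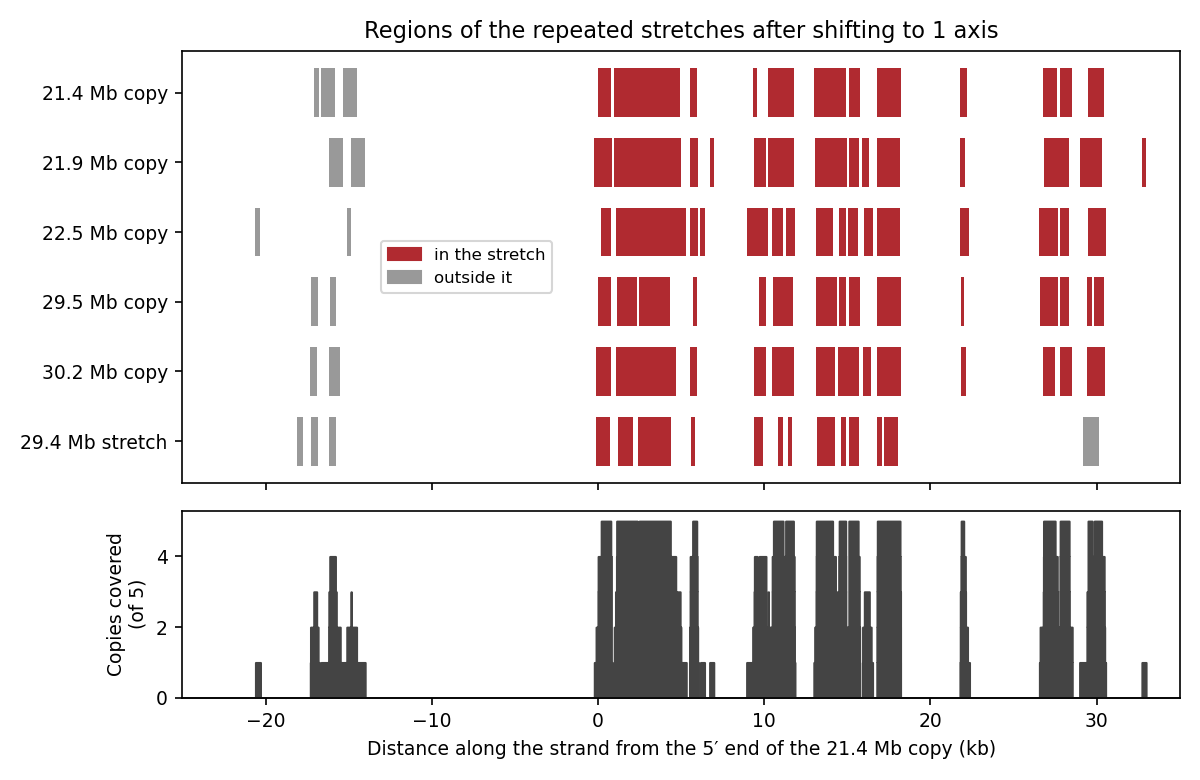
Regions of the 5 copies and of the 29.4 Mb stretch on 1 axis in kb along the strand, with regions of the stretch in red and others in grey (top), and the number of the 5 copies covered at each position (bottom). Covered positions line up over 30 kb, and the row of the 29.4 Mb stretch has 1 region beyond 20 kb, which lies outside the stretch.

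The longest bound part lay near the 5′ end. In the 22.5 Mb copy it was 1 region of 4254 nt (22505487 to 22509740), the longest of chromosome 16. It was 4010 nt in the 21.9 Mb copy (21884389 to 21888398), 3980 nt in the 21.4 Mb copy (21452161 to 21456140) and 3563 nt in the 30.2 Mb copy (30272895 to 30276457). These were the 4 longest regions of the chromosome, and all cover the same positions of the axis. The 29.5 Mb copy had 2 regions there, of 1238 nt and 1875 nt (29533235 to 29535109), of which the second ended at 4352 nt of the axis, while the single regions ended between 4676 and 5309 nt. The part from 2478 to 4352 nt was covered in all 5.

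A second shared part began at 16806 nt and was covered in all 5 copies over 1364 nt. Here the region was a single one in each copy and nearly equal in length. It measured 1424 nt in the 21.4 Mb copy, 1394 nt in the 21.9 Mb copy, 1379 nt in the 22.5 Mb copy, 1414 nt in the 29.5 Mb copy and 1416 nt in the 30.2 Mb copy. Just upstream, a region started at 15092 nt in the 21.4, 21.9 and 29.5 Mb copies, with 650, 624 and 650 nt, and at 15019 nt in the 22.5 Mb copy, with 632 nt. It started at 15092 nt in the domain at 29417743 to 29435933 as well, with 627 nt. In the 30.2 Mb copy a longer region of 1262 nt ran over these positions.

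The 3′ part was covered to a smaller extent. From 20 kb to the end, 25.8 to 30.8% of positions were covered in the 5 copies, by 3 to 5 regions each, against 47.9 to 61.4% over the first 20 kb. A short region near 21.8 kb was present in each, of 433, 325, 555, 167 and 263 nt in the order of the copies along the chromosome. None of the copies had a region between 18202 nt and 21776 nt. The choice of copies and of shifts used empty positions as well as covered ones, so it favours such shared gaps.

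A sixth stretch, the domain of 12 regions at 29417743 to 29435933 on the minus strand (the 29.4 Mb stretch), followed the same layout over its 18.2 kb. It was too short for the overlap of 20 kb. When an overlap of 15 kb was allowed, its r was 0.756 with the 29.5 Mb copy and 0.716 with the 30.2 Mb copy, and lower with the other 3 (0.588 to 0.646). Over the 21.4 Mb copy's span, 82.9% of the bases covered here, with 1 region outside the domain included, coincided with positions covered in all 5 copies. The stretch was picked by its layout and shifted to best match the 21.4 Mb copy, which largely sets this share. In place of the long 5′ region it had regions of 916 and 1988 nt, split like the 29.5 Mb copy. In place of the region from 16806 nt, which was whole in all 5 copies, it had 300 and 843 nt. From 20 kb onward there was 1 region of 929 nt (29405679 to 29406607), outside the domain, which covered 8.88% of these positions.

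Upstream of each copy, outside its domain, lay a further group of regions. A gap of more than 10 kb before it is set by the joining rule, so only the distances beyond 10 kb are free to vary. The nearest upstream region on the same strand ended 14524 nt before the axis start in the 21.4 Mb copy, 14007 nt in the 21.9 Mb copy and 14840 nt in the 22.5 Mb copy. It ended 15742 nt before it in the 29.5 Mb copy, 15506 nt in the 30.2 Mb copy and 15745 nt in the 29.4 Mb stretch. Each upstream group held 2 or 3 regions within 25 kb. Over all 5 copies the groups did not coincide as closely as the copies did: 341 nt were covered in 4 and 0 nt in all 5. Shifts were fitted within the copies and not upstream. Some groups were alike: a region ran from -17292 to -16837 nt in the 29.5 Mb copy and from -17305 to -16924 nt in the 30.2 Mb copy. In the 29.4 Mb stretch one ran from -17291 to -16827 nt. The outermost regions of the 21.4, 21.9 and 22.5 Mb copies began at -17098, -16191 and -20604 nt. In the 22.5 Mb copy, the one on the plus strand, the upstream regions were the shortest in sum, 571 nt, against 850 to 2002 nt in the others.

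The order and spacing of the copies were set beside those of the NPIPB genes without converting coordinates. In GENCODE 29, 6 NPIPB genes have an SMG1 pseudogene on the same strand that lies or extends upstream within 50 kb. The gap between gene and pseudogene is 0 nt for NPIPB3, NPIPB4 and NPIPB5. It is 13042 to 21770 nt for NPIPB11, NPIPB12 and NPIPB13. In order along the chromosome the 6 genes are NPIPB3, NPIPB4, NPIPB5, NPIPB11, NPIPB12 and NPIPB13, and NPIPB5 alone is on the plus strand. The 6 bound stretches, taken in order with the 29.4 Mb stretch between the 22.5 and 29.5 Mb copies, have the same strands. The 21.4 and 21.9 Mb copies were 432275 nt apart on hg19 by their layouts, and the 5′ ends of NPIPB3 and NPIPB4 are 432260 nt apart on GRCh38. The 29.4 Mb stretch and the 29.5 Mb copy were 101777 nt apart, and NPIPB11 and NPIPB12 are 101970 nt apart. The 29.5 and 30.2 Mb copies were 739984 nt apart, and NPIPB12 and NPIPB13 are 748511 nt apart, a difference of -8527 nt (1.14%), and for the 29.4 Mb stretch and the 30.2 Mb copy the difference was -8720 nt. The 6 pairs that join a copy at 21.4 or 21.9 Mb to a stretch at 29.4 Mb or beyond differed by more, 14511 to 23246 nt over distances of several Mb. As a share of the distance, the 10 same-strand pairs differed by 0.0035 to 1.14%. Such a share is small over a long distance, while 23246 nt is a large part of the 30464 nt that the 21.4 Mb copy spans. Pairs that share a stretch are not independent, and the 22.5 Mb copy with NPIPB5 is not among them. The spacing was compared after the copies had been found, and it assigns no single region to an exon, an intron or one of the paralogs. Transcripts of these 6 NPIPB genes shared a median of 70.2% of their 31-base words with each other (22.05 to 97.7% over 30 ordered pairs). For their SMG1 pseudogenes the median was 57.2% (22.99 to 95.5%). Whether the like layouts come from RNA of every copy or from reads of some copies placed on all of them cannot be told apart in a list with no treatment of multiple alignments given.

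Outside the copies and the 29.4 Mb stretch there were 4 further domains of at least 8 regions. The largest was a domain of 14 regions at 21493710 to 21534170 on the minus strand, upstream of the 21.4 Mb copy. Regions covered 24.6% of it, and its longest region, of 2667 nt (21504725 to 21507391), was the fifth longest of chromosome 16. A domain of 11 regions at 28366756 to 28409372 on the minus strand was covered over 10.97% and held no region over 866 nt. The most tightly covered domain of the segment with at least 8 regions was on the plus strand at 28814461 to 28822723, with 9 regions over 56.1% of 8.26 kb. A plus-strand domain at 15025542 to 15035386 held 8 regions over 34.4% of 9.85 kb, the longest of 724 nt. Outside the copies and the 29.4 Mb stretch, the longest regions were those of 2667 nt, of 2481 nt (22552714 to 22555194, plus strand) and of 1960 nt (18997763 to 18999722, plus strand). The 10 longest regions of the segment were completed by 1988 nt in the 29.4 Mb stretch (29431398 to 29433385), 1935 nt in the 21.9 Mb copy (21874405 to 21876339) and 1921 nt in the 21.4 Mb copy (21442195 to 21444115).

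Opposite strands rarely overlapped. Of 170 plus-strand regions on the segment, 2 (1.18%, 0.143 to 4.19%) overlapped a minus-strand region, against 2 of 169 (1.18%, 0.144 to 4.21%) on the rest of chromosome 16. A plus-strand region of 256 nt (28834249 to 28834504) overlapped one of 251 nt on the minus strand by 37 nt. A plus-strand region of 587 nt (30945582 to 30946168) contained a minus-strand region (30945682 to 30945930) whole. Neither pair lay in a copy.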

How the data were processed

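Per the submitters' processing notes, reads were aligned with Bowtie to hg19. The Bowtie version, region caller, filters, use of both replicates and handling of multiply aligned reads were not given in the sources used here, and they decide which regions are listed and how long they are. The deposited score is 1 for each region and carries no height. Deposited starts are 0-based and are printed 1-based. Labels do not say whether replicates were separate cultures, and the list has no column per replicate. Shares have exact Clopper-Pearson intervals and densities exact Poisson intervals. Copies were same-strand domains of at least 8 regions, joined over at most 10 kb and compared in 20 nt bins. The search was tested on simulated data. Copies were not defined from sequence, since no hg19 genome was used here. GENCODE 29 and RefSeq (GRCh38) gave gene and microRNA values only, and all 28 genes of the families on chromosome 16 matched RefSeq by symbol. Named were all copies, the 10 longest regions and largest domains, the 3 densest and sparsest windows and every overlap; the windows of other stretches were named after their values were seen. The 31-base word and microRNA comparisons were added after the regions had been seen. Members and lists were chosen with earlier results of these data known. Python 3.11.15, numpy 2.4.6, pandas 2.3.3, scipy 1.17.1 and matplotlib 3.10.9 were used.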

Additional observations from a re-analysis of the deposited data

How the results depend on the processing

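Of 26 alternatives, 17 stayed within the interval of the value reported, or within 1.5 times a count, and none turned a direction. The density ratio of the segment to the rest of chromosome 16 (2.81) was 2.31 without the longest empty stretch. It was 2.38 without the copies and 1.86 with domains counted once. Each change was made alone, so 2.38 and 1.86 keep that stretch in the rest. With domains counted once the difference in minus share was -1.28 percentage points. Without the copies the difference in the share over 1000 nt was 1.90 percentage points. The median length of 294 nt was 361 nt without regions of the commonest length and 259 nt without the copies. Regions matched at both ends numbered 28 within 50 nt, and overlaps between strands of at least 50 nt numbered 1, both by construction. The number of copies was 5 in 3 settings and 6 when an overlap of 15 kb or a joining distance of 20 kb was allowed; with the 15 kb overlap the added one was at 29.4 Mb. The alternative of a neighbour within 1 kb was chosen after seeing the data. No paired analysis was possible because the list pools its only group, and no replicate could be left out. Copies defined from sequence were not run, since no hg19 genome was used here. Depth is unknown and could not be used to weigh regions.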

Other observations

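The names of the regions hold numbers that rise along each strand with gaps, so the share of numbers listed can be counted. On the segment 435 of 1831 numbers (23.8%, 21.8 to 25.8%) were listed, against 542 of 3353 (16.2%, 14.9 to 17.5%) over the rest of chromosome 16. Within the 5 copies it was 70 of 100 numbers (70.0%, 60.02 to 78.8%), where the choice of dense domains favours a high share. By strand, the segment had 24.0% of minus-strand and 23.4% of plus-strand numbers listed, while the rest of the chromosome had 18.2% and 12.9%. The share over the whole list was not counted, so these values compare parts of chromosome 16 only. What set apart the numbers not listed was not tested.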
